A study of Mus musculus with 15 samples.

Results

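Clone 4 and clone 18 are a pair of *Pbrm1* knockout lines of Renca, a kidney carcinoma line that arose in BALB/c mice, and the tumors they formed were compared with each other gene by gene. Both lines were made with the same knockout plasmids, so the comparison addresses how far single-cell lines that lost the same gene differ in the tumors they make. The sources used here do not give the edited alleles of either line. It used 10 of the 15 tumors of the series, tumors 6 to 10 from clone 4 and tumors 11 to 15 from clone 18. The genes compared were those whose mean over these 10 tumors reached 10 normalized counts, 16391 of the 18279 genes in the table. *Ccdc151*, with a mean of 10.0, was just inside this limit and *Gm37242*, with 9.99, just outside.

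The knockout cells received a Cas9 plasmid against *Pbrm1* and a repair plasmid that carried puromycin resistance and red fluorescent protein, and each clone was grown from 1 sorted cell. Cells were injected in Matrigel under the skin of female BALB/c mice of 4 to 6 weeks, which have their own immune system, and bulk RNA was sequenced from the tumors. The mice were left untreated or given antibody to PD-1, and the sources used here do not say which of them gave these tumors. Tumors 1 to 5, the control, are labelled as parental Renca and are described in the study's methods as cells given a control plasmid. They are printed beside the clones as values and entered no test in the main comparison. The 5 tumors of a clone all come from 1 line, and p-values measure the spread between tumors of these lines and not between independent knockouts. In bulk RNA, fewer cells of a type and less RNA per cell cannot be told apart.

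*Pbrm1* encodes BAF180, the subunit with several bromodomains that marks the PBAF form of the SWI/SNF chromatin remodeler, and it is often lost in clear cell kidney cancer. PBAF moves nucleosomes at promoters and enhancers. A line grown from a single cell carries the chromosomes, the DNA methylation and the chromatin state of that cell into all of its descendants, and established tumor lines such as Renca are mixtures of cells that differ in all of these.

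*Pbrm1* itself (ENSMUSG00000042323, chromosome 14 from 31019138 to 31121592 on GRCm38, plus strand) was at the same low level in both lines. Its normalized counts were 2685.6, 2709.1, 2807, 2483.8 and 3067.8 in tumors 6 to 10 and 2724.7, 3137.5, 2572.1, 2865.7 and 2891.7 in tumors 11 to 15. The control tumors ranged from 7451.5 to 9870.6, above every knockout tumor. The log2 difference between the lines was 0.05 (standard error 0.07, adjusted p = 0.797), and their ranges overlapped.

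The 10 libraries held 32924414 to 44275740 reads on genes, 37819348 to 44275740 in clone 4 and 32924414 to 42246422 in clone 18. No pair of tumors of the same clone held the same library, since the counts of each such pair differed by more than sampling noise. Pairs between the clones were not compared in this way. Tumor 10 of clone 4 had the highest summed level of the knockout tumors for 8 of the 15 lists of host cell markers, among them fibroblasts, endothelial cells and neutrophils. Earlier work on these data had set tumor 10 and tumor 13 of clone 18 apart, and the fit was repeated without both. Of the 79 called genes chosen by the naming rule, 62 were called without them, and those that were not include *Rasl10a*, *Cd4*, *Rgs5*, *Des*, *H2-Eb1*, *Ndufb10*, *Hoxc10*, *Hoxd9*, *Cldn1*, *Tgfbr1*, *Nupr1*, *Pycr1*, *Ftl1*, *Ireb2*, *Slc2a3* and *Phf1*.

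Between the clones, 674 genes passed an adjusted p of 0.05 in limma, 4.11% of those tested. They comprised 358 genes higher in clone 18 (2.18%) and 316 lower (1.93%). In 990 genes, or 6.04%, the 5 tumors of one clone lay wholly above the 5 of the other, and 578 of the called genes were among them. Most called differences were small. Their median size was 0.54 on the log2 scale, a 1.45-fold change, and 289 were under 0.5, while 169 were at least 1 and 40 at least 2. Among the 40, 27 were higher in clone 18 and 13 lower. The balance between directions depended on the scaling, since 53.1% of the calls were higher in clone 18 as deposited, 63.4% after scaling to the upper quartile and 62.6% after scaling to total reads. The median difference of all tested genes was -0.01 as deposited, 0.01 with the upper quartile and 0.01 with total reads.

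**Figure D1:**
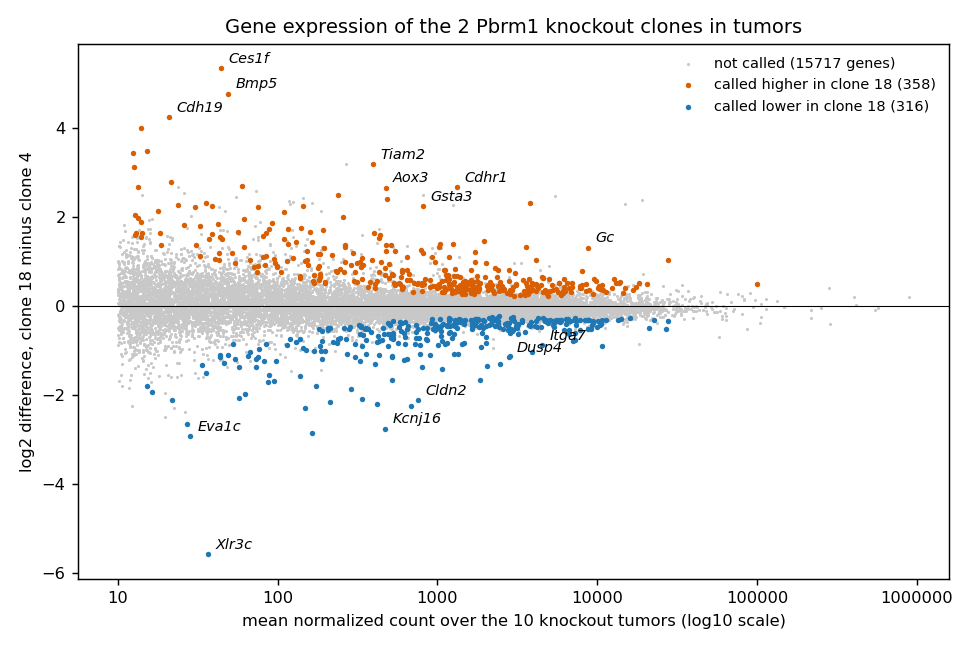
Log2 difference between clone 18 and clone 4 for each of the 16391 tested genes (vertical axis) against the mean normalized count over the 10 knockout tumors (horizontal axis, log10 scale). Orange and blue points are the 358 and 316 genes called higher and lower in clone 18, grey points are not called, and the largest differences are seen among genes with low counts, from Ces1f at 5.35 to Xlr3c at -5.57.

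The largest rises in clone 18 were in genes that were nearly silent in clone 4. *Ces1f* (ENSMUSG00000031725, chromosome 8 from 93256236 to 93279747, minus strand), a carboxylesterase that cleaves ester bonds in lipids and drugs, had 3.9, 0, 1, 1.1 and 0 normalized counts in tumors 6 to 10 and 127.6, 27.1, 62.8, 66.2 and 150 in tumors 11 to 15. Every clone 18 tumor was above every clone 4 tumor, and the control tumors, at 3.2 to 18.5, were below every clone 18 tumor and overlapped clone 4. It differed by 5.35 on the log2 scale (standard error 0.56, adjusted p = 0.000113), which moved between 3.72 and 7.05 with pseudocounts of 5 and 0.1.

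*Bmp5* (ENSMUSG00000032179, chromosome 9 from 75775364 to 75900310, plus strand), a secreted ligand of the bone morphogenetic protein family, had 1.9, 1, 9.9, 1.1 and 2.2 in clone 4 and 129.6, 109.5, 77.2, 59.1 and 96.3 in clone 18. The control tumors held 1.1 to 6.2, so the gene was high only in the 5 clone 18 tumors among these 15. The difference was 4.78 (standard error 0.46, adjusted p = 5.35e-05). *Cdh19*, a cadherin best known from Schwann cells, had 0 to 3.8 in clone 4 and 65.3, 9.8, 31.4, 37.1 and 58.2 in clone 18 (log2 difference 4.25, adjusted p = 0.00119), and 1 control tumor reached 38.3 while the median control held 0.9. Of the 6 tested Schwann cell markers, *Cdh19* alone was called, and their summed level was 6163.9 to 7333.1 in clone 4 and 5504 to 6847 in clone 18.

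Among genes with higher counts, *Tiam2*, an exchange factor that activates the small GTPase Rac, had 67.5, 163.4, 36.8, 60.3 and 92.5 in clone 4 and 863.3, 530.3, 579.9, 732.7 and 807.2 in clone 18, which is 9.17-fold more (log2 difference 3.20, standard error 0.31, adjusted p = 5.35e-05). *Pak6*, a kinase of the family that Rac and Cdc42 activate, moved the same way, from 0 to 3.9 in clone 4 to 12 to 45.5 in clone 18 (log2 difference 3.14, adjusted p = 0.00403). The control differed between this pair, since *Tiam2* was at 39.6 to 59.3 there, below clone 18, and *Pak6* at 30.6 to 46.4, above clone 4. *Rasl10a*, a small GTPase related to Ras, had 0 to 12.5 in clone 4 and 19 to 45.5 in clone 18 (log2 difference 2.80, adjusted p = 0.0254), and 5 of the 10 fits with 1 tumor left out no longer called it.

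*Cdhr1* (ENSMUSG00000021803, chromosome 14 from 37077857 to 37098347, minus strand), a cadherin-related membrane protein of photoreceptors, had 304.7, 489.3, 212.9, 297 and 526.9 in clone 4 and 2159.4, 2822.5, 2081.3, 1472.5 and 2882.8 in clone 18. Clone 18 had 6.40-fold more (log2 2.68, standard error 0.24, adjusted p = 3.11e-05), with the control tumors at 561 to 1222 between the clones. *Cntn1*, a neuronal adhesion protein of the immunoglobulin family, had 5 to 38.2 in clone 4 and 77.6 to 135.3 in clone 18 (log2 difference 2.70, adjusted p = 0.002). *Zfp182*, a zinc finger gene on the X chromosome, had 48.2 to 132 in clone 4 and 367.9 to 466.4 in clone 18, near the 340.3 to 377.2 of the control (log2 difference 2.51, adjusted p = 3.11e-05). It was thus clone 4 that stood apart from the other 10 tumors.

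*Aox3* (ENSMUSG00000064294, chromosome 1 from 58113130 to 58200698, plus strand), an aldehyde oxidase, had 175.5, 74.5, 161.1, 124 and 104.7 in clone 4 and 1064.4, 953.6, 493.5, 605.4 and 982.9 in clone 18 (log2 difference 2.67, standard error 0.26, adjusted p = 5.35e-05), against 523.3 to 727.6 in the control. Its neighbor *Aox1*, chosen after its values were seen, rose less, from 4099.4 to 5118.6 in clone 4 to 5752.9 to 7065.3 in clone 18 (log2 difference 0.40, adjusted p = 0.00895). *Ces1g*, a carboxylesterase beside *Ces1f* and likewise chosen after its values were seen, had 1.9 to 9.1 in clone 4 and 12.3 to 27.6 in clone 18 (log2 difference 2.05, adjusted p = 0.0136). *Ces1d* of the same cluster held at most 6.7 in any knockout tumor and was under the limit for testing. *Ces2g*, a carboxylesterase of another subfamily, had 173.6 to 501.7 in clone 4 and 308.9 to 586.6 in clone 18, which was not called (adjusted p = 0.168). Of other enzymes of drug metabolism chosen after their values were seen, *Ces2e* (-0.37), *Cyp2s1* (-0.26), *Ephx1* (0.16) and *Ugt1a7c* (0.13) were not called. *Cyp1b1* (0.61), *Ugt1a2* (0.43), *Ugt1a6a* (0.27) and *Ugt1a1* (1.33, adjusted p = 0.0628) were not called either. *Ugt1a6b*, of the same cluster as *Ugt1a7c*, was called higher in clone 18 (log2 difference 0.89, adjusted p = 0.00245). The carboxylesterases of 1 cluster resemble one another in sequence, so reads could have been split among them.

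*Serpina12* (chromosome 12 from 104028769 to 104044443, minus strand), a serine protease inhibitor secreted by fat tissue and known as vaspin, had 50.1, 253.2, 112.4, 136.5 and 310.8 in clone 4 and 761.3, 653.3, 674.1, 706.7 and 1184.5 in clone 18 (log2 difference 2.43, standard error 0.39, adjusted p = 0.00306). Both clones were below every control tumor, which held 1319.5 to 6104.6. The remaining large rises were in the noncoding *Platr4* (log2 difference 4.01), the uncharacterized *9130409J20Rik* (3.48) and *March10* (3.44), a ubiquitin ligase of the MARCH family.

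**Figure D2:**
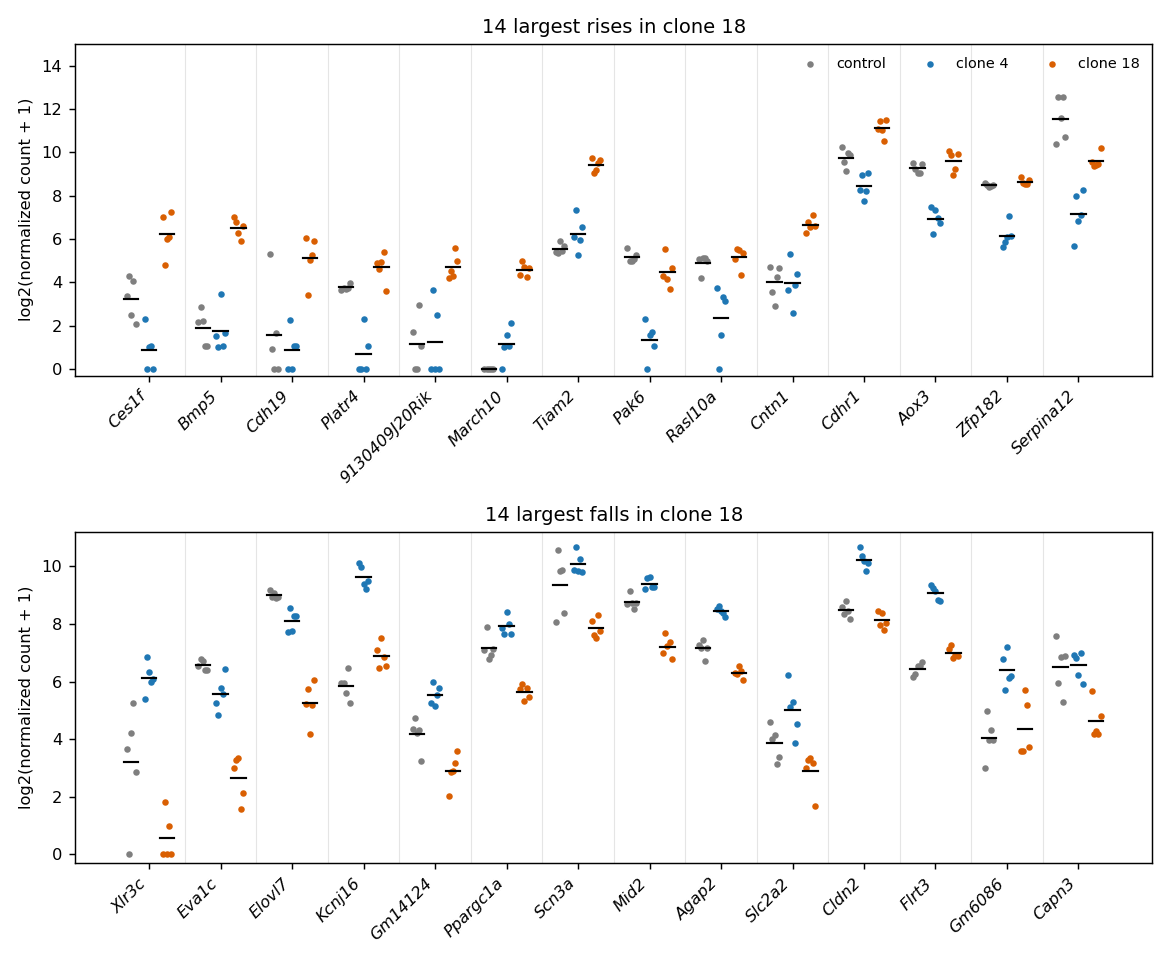
Expression in each of the 15 tumors, as log2(normalized count + 1), of the 14 genes with the largest rises (top) and the 14 with the largest falls (bottom) in clone 18 among called genes whose clones do not overlap. Points are tumors (grey control, blue clone 4, orange clone 18, 5 each) and bars are group means, and the control lies beside clone 4 in some genes (Bmp5), beside clone 18 in others (Zfp182) and outside both in others (Serpina12).

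The largest fall in clone 18 was in *Xlr3c* (ENSMUSG00000058147, X chromosome from 73254540 to 73265390, minus strand), a member of a lymphocyte-regulated gene family in which imprinting is known. It had 41.5, 114.7, 79.6, 62.6 and 66.8 normalized counts in clone 4 and 0, 2.5, 0, 1 and 0 in clone 18, or at most 2 reads in a tumor. The control tumors were spread from 0 to 37. It differed by -5.57 on the log2 scale (standard error 0.46, adjusted p = 1.61e-05), which moved from -3.73 to -7.80 with pseudocounts of 5 and 0.1. *Xlr3a*, a close copy chosen after its values were seen, had 742.5 to 983.6 in clone 4 and 709.7 to 872.3 in clone 18 (adjusted p = 0.442). The copies are nearly identical, so the assignment of reads among them is uncertain.

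*Kcnj16* (ENSMUSG00000051497, chromosome 11 from 110968033 to 111027968, plus strand), a subunit of inward-rectifier potassium channels, had 1106.1, 1016.7, 670.4, 595.1 and 718.5 in clone 4 and 134.7, 87.4, 180.6, 115.3 and 91.8 in clone 18, which is 6.73-fold less (log2 difference -2.75, standard error 0.22, adjusted p = 1.25e-05). The control tumors held 37 to 88.5, so clone 4 was the line that stood apart. *Cldn2* (X chromosome from 139800828 to 139811386, plus strand), a claudin that forms cation pores between cells of the proximal tubule, also set clone 4 apart, with 1639.3, 1313.9, 1160.8, 914.8 and 1119.5 in clone 4, 349, 248.5, 336.4, 221.5 and 263.1 in clone 18 and 288.6 to 445.1 in the control (log2 difference -2.11, standard error 0.16, adjusted p = 8.9e-06). *Slc2a2*, the glucose transporter GLUT2, had 13.7 to 74.3 in clone 4 and 2.2 to 9.2 in clone 18 (log2 difference -2.11, adjusted p = 0.0238), a call that 3 of the 10 fits with 1 tumor left out did not make.

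*Ppargc1a*, which encodes PGC-1alpha, a coactivator of mitochondrial genes, had 234.3, 201.6, 339.2, 256 and 201.6 in clone 4 and 53.1, 59.1, 39.3, 54.1 and 43.7 in clone 18 (log2 difference -2.27, standard error 0.19, adjusted p = 1.61e-05), with 110.4 to 240.4 in the control. Of the 40 tested genes of oxidative phosphorylation, which PGC-1alpha is known to raise, 1 was called, *Ndufb10*, higher in clone 18 (log2 difference 0.31, adjusted p = 0.0324), and their median was -0.001. *Elovl7*, an elongase of long-chain fatty acids, had 213.1 to 374.6 in clone 4 and 17 to 64.9 in clone 18 (log2 difference -2.85, adjusted p = 0.000163), both below the 480.7 to 584.9 of the control. Here the lines differed from each other and from the control in the same direction.

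*Scn3a*, a voltage-gated sodium channel, had 888.9 to 1628.3 in clone 4 and 183.3 to 314.7 in clone 18 (log2 difference -2.23, adjusted p = 1.67e-05). The control tumors were spread from 270.4 to 1538.7 and overlapped both lines. *Agap2*, which regulates Arf GTPases, had the smallest adjusted p of all genes, 3.72e-06, with 363.5, 398.5, 348.1, 330 and 304.1 in clone 4 and 77.6, 75.1, 91.6, 82.2 and 64.9 in clone 18 (log2 difference -2.14, standard error 0.14). Its tumors were tightly grouped within each line. *Mid2*, a ubiquitin ligase on the X chromosome, fell by 2.19 on the log2 scale (adjusted p = 8.86e-06), and *Flrt3*, a membrane protein that binds FGF receptors, fell by 2.07 (adjusted p = 5.99e-06). *Eva1c* (-2.91), *Gm14124* (-2.64), *Gm6086* (-2.05) and the protease gene *Capn3* (-1.96) complete the 14 largest falls. Of these 14 falls and the 14 largest rises, 25 were called with any 1 tumor left out, 28 by edgeR and 24 by DESeq2, which gave no adjusted p for the other 4.

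Few genes were near absent in one line and counted in the other. Of the 16391 tested, 5 had at most 3 reads in each tumor of one clone. *March10*, with 18 to 25 reads per tumor in clone 18, and *Xlr3c* were called and did not overlap. The other 3 were the antibody genes *Ighg2c*, *Ighv3-8* and *Igkv6-32*, at 0 in all 5 clone 18 tumors. Their counts in clone 4 came mostly from tumor 10, with 187.1, 205 and 232.8, and none was called (adjusted p = 0.308, 0.595 and 0.592).

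The list of NRF2 and glutathione genes held the most calls of the 33 pathway lists. NRF2 (*Nfe2l2*) is a transcription factor held in check by KEAP1, and under oxidative stress it binds antioxidant response elements and raises genes that make glutathione and couple it to reactive compounds. Of the 31 tested genes, 8 were higher in clone 18, or 25.8% against 2.18% of all tested genes, and 0 were lower, with a median of 0.25 for the list and -0.01 for all genes. The 8 code for glutathione synthesis (*Gclm*) or glutathione transferases (*Gsta2*, *Gsta3*, *Gsta4*, *Gstm1*, *Gstm2*, *Mgst1* and *Mgst2*). They are not all separate instances. *Gsta2* and *Gsta4* lie close together on chromosome 9, in a stretch that appeared with windows of 15 genes (16 tested genes, median 0.29). *Gstm1* and *Gstm2* are neighbors on chromosome 3, and *Mgst2* lies in another stretch of chromosome 3, described further on. Without tumors 10 and 13 the count was 7, and with 1 tumor left out it was 7 to 12.

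*Gsta4*, a transferase for products of lipid peroxidation, had 433.9, 723.4, 905.2, 653.1 and 717.4 in clone 4 and 2253.3, 1200.9, 1870.5, 1832.3 and 1895.3 in clone 18 (log2 difference 1.41, standard error 0.19, adjusted p = 0.000831), with the control at 388.5 to 733.4. *Gstm1* had 3077.9 to 3904.1 in clone 4 and 4813.3 to 6377.3 in clone 18 (log2 difference 0.65, adjusted p = 0.000905). *Mgst1*, a membrane-bound transferase of the endoplasmic reticulum and mitochondria, had 10116 to 12033 in clone 4 and 12999 to 17120 in clone 18 (log2 difference 0.52, adjusted p = 0.00654). In these genes each clone 18 tumor was above each clone 4 tumor.

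Further members of the list were chosen after their values were seen because of their size or role. *Gsta3* had the largest difference of the list, 88.7, 473, 185, 501.8 and 233.9 in clone 4 against 1770.6, 422, 1286.7, 1898.5 and 1265.1 in clone 18 (log2 difference 2.26, standard error 0.47, adjusted p = 0.016). Tumor 12 lay within the range of clone 4. The control tumors, at 1702.3 to 4810.7, were above every clone 4 tumor, while tumors 11 and 14 of clone 18 lay within the control range. *Gclm*, the modifier subunit of the enzyme that limits glutathione synthesis, had 4016.9 to 5308.9 in clone 4 and 5346.1 to 8233.4 in clone 18 (log2 difference 0.52, adjusted p = 0.0155). *Gsta2* had 7.7 to 26.9 and 28.3 to 89.2 (log2 difference 1.62, adjusted p = 0.0296). The Gsta genes are close paralogs, so their reads may not be fully separated.

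The regulators and several classical targets were not called. *Nfe2l2* itself differed by -0.18 (adjusted p = 0.231) and *Keap1* by 0.05 (adjusted p = 0.745). *Nqo1*, with 1316.3 to 1807.9 in clone 4 and 1591.7 to 2155.1 in clone 18, missed the threshold (log2 difference 0.34, adjusted p = 0.0905), as did *Hmox1* (0.58, adjusted p = 0.291), while *Slc7a11* (-0.22) and *Txnrd1* (-0.09) had negative differences.

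The core of the antioxidant response element, TGACNNNGC, was sought on both strands in the 250 bases before the start of each gene. RefSeq promoter windows on GRCm38.p6 were on hand for 26 of the 31 genes, and the core was in 3 of 7 called members and 4 of 19 others. It was also in 1599 of the 11442 tested genes with a window, or 14.0%, so a match alone says little about any 1 gene. The 3 called members with a match are printed 5' to 3' on the strand of the gene, with the core in capitals. Distances are to the RefSeq start of the window, and in GENCODE the model of *Mgst1* begins upstream, at 138140316, so its core lies within that model.
Gclm, chr3:122245397-122245456, plus strand, core on the opposite strand, first base 134 bases before the start: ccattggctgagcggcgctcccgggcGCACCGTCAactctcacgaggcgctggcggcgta
Gsta3, chr1:21240438-21240497, plus strand, core on the gene's strand, first base 121 bases before the start: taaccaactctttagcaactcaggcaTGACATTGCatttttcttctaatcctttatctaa
Mgst1, chr6:138140445-138140504, plus strand, core on the opposite strand, first base 56 bases before the start: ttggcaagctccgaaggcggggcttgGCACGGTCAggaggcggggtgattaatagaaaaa

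The list of MYC and RAS genes held more calls than any pathway list but that of NRF2. RAS and RAF activate the kinases MEK and ERK, and ERK in turn raises DUSP phosphatases, Sprouty and Spred proteins, which restrain the pathway, and ETS factors such as *Etv4* and *Etv5*. In the list of MYC and RAS genes, 6 of 33 tested genes were lower, or 18.2% against 1.93% of all tested genes, and 1 was higher. The 6 lower genes were *Dusp4*, *Dusp6*, *Spry1*, *Spred1*, *Etv4* and *Etv5*. The median of the list was -0.08, and 6 or 7 genes were called with any 1 tumor left out and 6 without tumors 10 and 13.

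*Dusp4*, a phosphatase that acts on ERK in the nucleus, had 2647.1, 3599.7, 3824.6, 3394 and 5997.6 in clone 4 and 1606.3, 1769.3, 1426.8, 1980.7 and 1748.7 in clone 18 (log2 difference -1.14, standard error 0.17, adjusted p = 0.00168), with the control at 2197.7 to 3302.2, above clone 18 and overlapping clone 4. *Dusp6*, its counterpart in the cytoplasm, had 7908.8 to 9993.3 in clone 4 and 5365.9 to 6403.6 in clone 18 (log2 difference -0.60, adjusted p = 0.000456), both above the control at 3667.4 to 5232.9. *Spry1* had 707.7 to 934.6 and 376.5 to 596.9 (log2 difference -0.84, adjusted p = 0.00168). In these genes the tumors of the lines did not overlap, while the control took a different place in each.

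*Etv5* had 1168.5 to 1647.1 in clone 4 and 732.7 to 933.9 in clone 18 (log2 difference -0.83, adjusted p = 0.000563), and it lies in a stretch of chromosome 16 that was lower as a whole, described further on. *Etv4* on another chromosome, chosen after its values were seen, had 1085.5 to 1743.9 and 818.4 to 1178.1 (log2 difference -0.63, adjusted p = 0.0164), and *Spred1* had 3011 to 3931 and 2389.1 to 3094.4 (-0.45, adjusted p = 0.0112). Other members of the same families were not called, *Spry2* at -0.29 (adjusted p = 0.151), *Spry4* at -0.39 (adjusted p = 0.18), *Spred2* at -0.47 (adjusted p = 0.0646) and *Dusp5* at -0.002 (adjusted p = 0.998). Genes that respond to ERK early and were chosen after their values were seen were not called either, *Fosl1* at 0.25 (adjusted p = 0.673), *Egr1* at 0.16 (adjusted p = 0.556) and *Phlda1* at -0.29 (adjusted p = 0.535). The pathway genes *Hras*, *Nras*, *Braf*, *Map2k1* and *Mapk3* were not called either, nor was *Myc* (-0.20, adjusted p = 0.428).

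**Figure D3:**
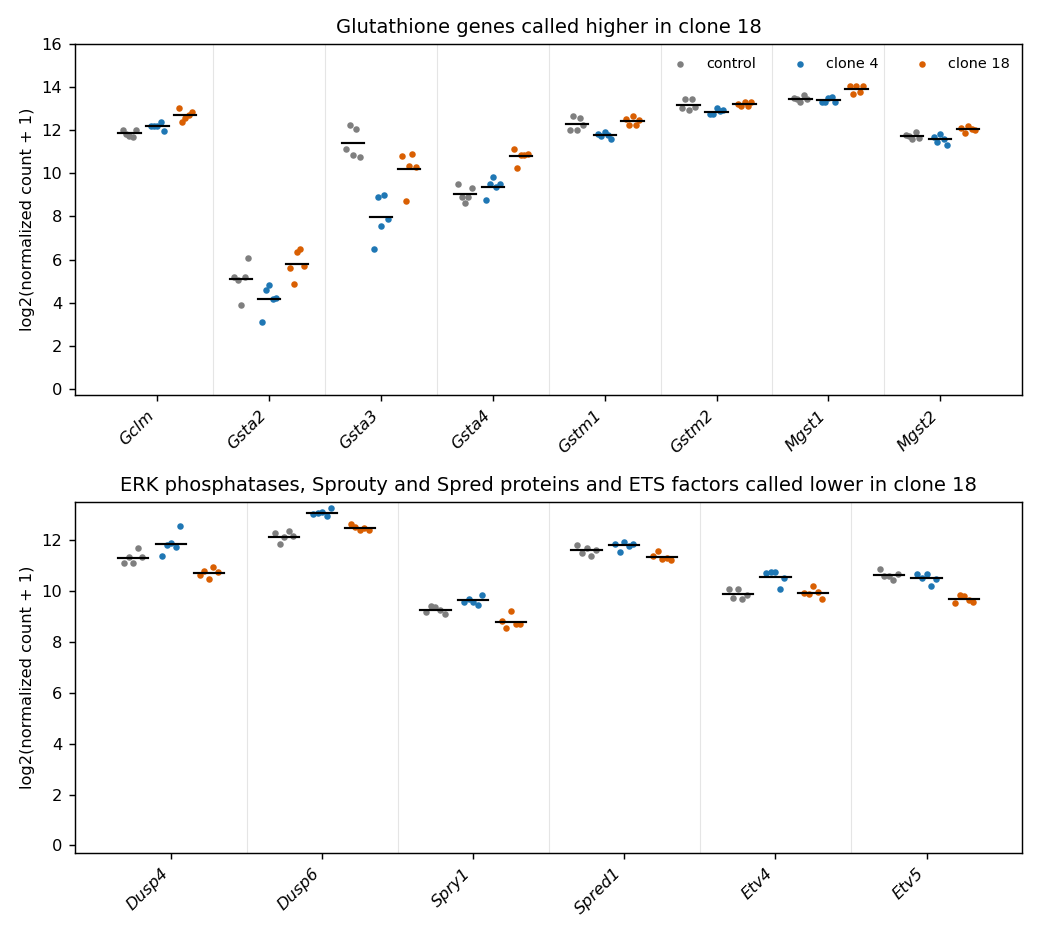
Expression in each of the 15 tumors, as log2(normalized count + 1), of the 8 glutathione genes called higher (top) and the 6 ERK-related genes called lower (bottom) in clone 18. Points are tumors (grey control, blue clone 4, orange clone 18, 5 each) and bars are group means, and the clones differ by 0.36 (Gstm2) to 2.26 (Gsta3) above and by -0.45 (Spred1) to -1.14 (Dusp4) below.

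Hox genes, the transcription factors that set position along the body axis and keep a cell line's regional identity, were higher in clone 18 where they were called. Of 32 tested, 5 were higher and 0 lower, or 15.6% against 2.18%, the median was 0.28 and 28 of the 32 had a positive difference. *Hoxc6* (ENSMUSG00000001661, chromosome 15 from 102998257 to 103011881, plus strand) had 365.5, 220.7, 360.1, 243.5 and 290.7 in clone 4 and 529.6, 732.1, 634.8, 537.3 and 519.5 in clone 18 (log2 difference 1.01, standard error 0.16, adjusted p = 0.00251), with 244.9 to 319.9 in the control. *Hoxc9* had 156.2 to 197.9 and 259.6 to 439.8 (log2 difference 0.85, adjusted p = 0.00819), with 235.6 to 343.5 in the control. *Hoxc10* (0.44), *Hoxd9* (0.28) and *Hoxb6* (0.34) were called with adjusted p of 0.032, 0.0376 and 0.0494. With 1 tumor left out 2 or 3 of the 32 were called, and *Hoxd9* lost its call in 9 of the 10 fits. *Hoxc6*, *Hoxc9* and *Hoxc10* lie together on chromosome 15 and the Hoxc genes overlap in the annotation, so they are not separate instances.

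Signaling ligands and receptors gave single calls rather than groups. *Tgfb2*, a transforming growth factor, had 657.6 to 1103.1 in clone 4 and 344.8 to 395.9 in clone 18 (log2 difference -1.20, standard error 0.14, adjusted p = 0.000269), and the receptor gene *Tgfbr1* was lower as well (-0.32, adjusted p = 0.0322), 2 of the 36 genes tested in that family, of which 5 were called without tumors 10 and 13. *Wnt7b* was the 1 call among 36 Wnt genes, with 255.5 to 524.7 and 679.7 to 827.3 (log2 difference 1.24, adjusted p = 0.00102). *Vegfd*, a lymphatic growth factor, was the 1 call among 24 angiogenesis genes (0.75, adjusted p = 0.0326, lost in 5 of the 10 fits with 1 tumor left out). These counts, 1 or 2 per list, lie near the background of 4.11%.

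*Igf2*, an imprinted fetal growth factor, was the 1 call among 25 imprinted genes. It had 19.3, 71.7, 41.8, 42.1 and 115.9 in clone 4 and 171.4, 108.3, 214.7, 133.3 and 242.9 in clone 18 (log2 difference 1.74, standard error 0.39, adjusted p = 0.0249), and 0 to 7.4 in the control. Tumor 10 overlapped clone 18, and 5 of the 10 fits with 1 tumor left out did not call the gene. *H19*, which shares its imprinted domain with *Igf2* and was chosen after its values were seen, had 7.7 to 132.6 and 62.3 to 396.6 (log2 difference 1.73, adjusted p = 0.156).

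Of 17 genes of renal tubule identity, 1 was higher and 1 lower, or 11.8% against 4.11% of all tested genes, 13 had a positive difference and the median was 0.33. *Gc* (ENSMUSG00000035540, chromosome 5 from 89417522 to 89457898, minus strand), the vitamin D binding protein, had 4011.6, 7455.4, 2757.3, 5600.2 and 5828.2 in clone 4 and 15358, 7831.5, 12261, 15114 and 11788 in clone 18 (log2 difference 1.32, standard error 0.24, adjusted p = 0.00744), against 320.9 to 558.2 in the control. *Vcam1*, an adhesion molecule of injured tubule and of vessels, had 905.2 to 1466 and 494.6 to 736.7 (log2 difference -1.10, adjusted p = 0.000447). Of 19 epithelial genes, 3 were lower, or 15.8% against 1.93% of all tested genes, and 0 higher, and all 3 belong to tight junctions, *Cldn2* described above, *Cldn1* (-0.53, adjusted p = 0.0173, not called without tumors 10 and 13) and *Tjp3* (-1.22, adjusted p = 0.00662). None of the 17 mesenchymal genes was called, with 4 at an unadjusted p under 0.05, 0 by edgeR and 1 by DESeq2.

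*Itga7*, a laminin receptor subunit, had 4520.7 to 7074.8 in clone 4 and 2815.6 to 3387 in clone 18 (log2 difference -0.87, adjusted p = 0.000693), and *Itgb6* 50.7 to 116.6 and 25.1 to 34.7 (-1.35, adjusted p = 0.0084). These were 2 of 36 tested genes of basement membrane and integrins, or 5.56% against 4.11% of all tested genes. The aggrecan-cleaving protease genes *Adamts5* (-0.89, adjusted p = 0.000905), *Adamts1* (-0.48, adjusted p = 0.0129) and *Adamts9* (-0.50, adjusted p = 0.0297, lost in 7 of the 10 fits with 1 tumor left out) were lower. They were 3 of 32 metalloproteinases and inhibitors, or 9.38% against 4.11% of all tested genes. The median of that list was 0.16, with 19 positive, and 6 were called without tumors 10 and 13. *Adamts1* and *Adamts5* are neighbors on chromosome 16, which was lower in clone 18 along nearly all of its length, as described further on.

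Lists of stress, metabolism and chromatin held 1 to 4 calls each. Of 23 genes in a joint list of CDK inhibitors and the p53 axis, 3 were higher, or 13.0% against 2.18% of all tested genes. In that list 0 were lower, and the median was 0.02. The 3 were *Gdf15*, a stress cytokine (1160.5 to 1617.8 in clone 4, 2314.4 to 3553.8 in clone 18, log2 difference 0.97, adjusted p = 0.00112), *Phlda3* (0.49, adjusted p = 0.00305) and the CDK inhibitor gene *Cdkn2b* (0.51, adjusted p = 0.00392). Their 5 tumors per line did not overlap, and leaving out any 1 tumor kept at least 3 calls in the list. Of 29 genes of the stress response 3 were called, or 10.3% against 4.11%, and 1 was without tumors 10 and 13. *Nupr1* was higher (0.33) and *Shmt2* (-0.32) and *Pycr1* (-0.48), enzymes of serine and proline metabolism, lower. Of 33 lipid synthesis genes 4 were called, or 12.1%, with 1 to 2 called when 1 tumor was left out. The desaturases *Fads2* (0.41) and *Scd1* (0.41) were higher. The ferritin gene *Ftl1* was higher (0.51) and *Ireb2*, which represses ferritin translation, lower (-0.30), both near the threshold (adjusted p = 0.0485 and 0.0358), and these 2 of 22 iron genes, or 9.09%, were not called without tumors 10 and 13. *Slc2a3*, a glucose transporter, was lower (-1.36, adjusted p = 0.0271), as was the cytokine gene *Il1b* (-1.06, adjusted p = 0.0183), and the Polycomb-linked *Phf1* was higher (0.47, adjusted p = 0.0344).

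**Figure D4:**
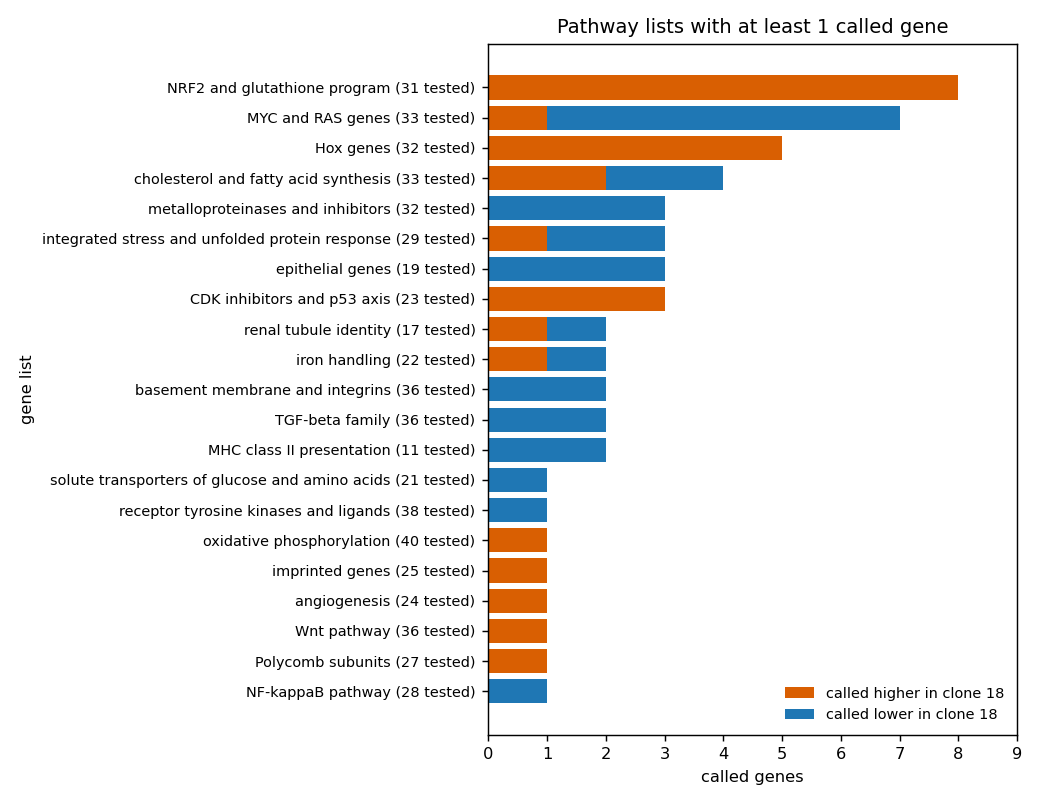
Number of genes called higher (orange) and lower (blue) in clone 18 in each of the 21 pathway lists that held a called gene, with the number tested in parentheses. The horizontal axis counts genes from 0, and the longest bars are the NRF2 and glutathione list with 8 of 31, the MYC and RAS list with 7 of 33 and the Hox list with 5 of 32.

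In 12 of the 33 pathway lists, with 268 tested genes in all, limma called no gene, while 41 had an unadjusted p under 0.05, edgeR called 2 and DESeq2 9. Among these lists are the partners of *Pbrm1* in the remodeler and the interferon genes. Of 22 PBAF and BAF subunits 0 were called (4 at an unadjusted p under 0.05, 0 by edgeR and 1 by DESeq2), and *Phf10* and *Actl6a* differed by -0.13 and -0.12. Of 21 interferon receptor and JAK-STAT genes 0 were called (4 unadjusted, 1 by edgeR, 1 by DESeq2), with *Jak1* at -0.08 and *Stat3* at 0.05. *Ifngr2*, chosen after its values were seen, had 2778.5 to 3522.3 in clone 4 and 2411.7 to 3008.4 in clone 18 (log2 difference -0.18, adjusted p = 0.244). *Ifngr2* lies on chromosome 16, which was lower in clone 18 along nearly all of its length (median -0.12), as described further on.

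Of 30 interferon-stimulated genes 0 were called (5 unadjusted, 0 by edgeR, 2 by DESeq2), but 6 without tumors 10 and 13, and the median moved from 0.11 to 0.28. *Ifitm3* was at 5522.3 to 8100.7 and 6923.3 to 9268.6 (log2 difference 0.36, adjusted p = 0.0801). Of 16 genes of MHC class I presentation 0 were called (4 unadjusted, 0 by edgeR and 0 by DESeq2), with *H2-D1* at -0.06 and *B2m* at -0.02. The 8 genes of X inactivation and the Y chromosome (2 unadjusted), 27 chemokines (3), 36 hypoxia and glycolysis genes (3), 18 Notch genes (1), 23 collagens (0) and 15 kidney cancer genes (1) gave 0 calls by limma, edgeR and DESeq2. Of 35 cell cycle genes limma called 0, with 10 unadjusted, 1 by edgeR and 4 by DESeq2, and *Top2a* differed by -0.30 and *Pcna* by 0.10. Without tumors 10 and 13, limma called 2 of the cell cycle genes and 3 of the hypoxia and glycolysis genes.

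Markers of host cells varied between tumors of 1 line. The summed levels of all 15 lists overlapped between the clones, and 10 lists held no call, with 65 tested genes of which 8 had an unadjusted p under 0.05, 0 were called by edgeR and 0 by DESeq2. Macrophage markers summed to 69783 to 86014 in clone 4 and 62916 to 84116 in clone 18. Of 12, *Csf1r*, the receptor that macrophages need to survive, was lower (10799 to 14087 and 8018.7 to 9894.3, log2 difference -0.40, adjusted p = 0.0164), and *Cd68*, a lysosomal marker, was higher (0.52, adjusted p = 0.0161), so the list had calls in both directions. Its median was -0.27, 10 of the 12 were negative, 8 had an unadjusted p under 0.05 and DESeq2 called 5. The limma calls were 16.7% of the list, against 4.11% of all tested genes.

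All 11 genes of MHC class II presentation, found on macrophages, dendritic cells and B cells, had negative differences, with a median of -0.32. Of these *H2-DMa* (-0.39, adjusted p = 0.0137) and *H2-Eb1* (-0.41, adjusted p = 0.0281, lost in 7 of the 10 fits with 1 tumor left out) were called. The limma calls were 18.2% of the list, against 4.11% of all tested genes. DESeq2 called 7 of the 11, and 1244 of all 16391 tested genes. Both genes called by limma lie on chromosome 17, in a stretch that appeared with windows of 15 genes. It ran from 34028269 to 34600936, with 23 tested genes and a median of -0.27, so they are not separate instances. How much of the negative differences of the list goes with the lower macrophage markers was not tested.

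T cell markers summed to 774 to 1195.3 in clone 4 and 675.4 to 919.4 in clone 18, and *Cd4* was the 1 call of 13 tested (149.2 to 276.8 and 77.2 to 165.7, log2 difference -0.99, adjusted p = 0.0266, lost in 7 of the 10 fits). The highest clone 18 value, in tumor 15, was within the range of clone 4. Fibroblast markers had a median of 0.50 with no call, from 17720 to 183220 summed in clone 4 and 59688 to 121510 in clone 18, and this median was 1.01 without tumors 10 and 13. Red cell markers had a median of -0.62 with no call, and 5 of the 6 were called without tumors 10 and 13. Skeletal muscle markers, 10 of 10 with a positive difference and no call, summed to at most 293.5 in the control, to 101.3 to 1439.1 in clone 4 and to 141.5 to 2209.4 in clone 18. The actin gene *Acta1* had 0, 4.8, 0, 273.1 and 386.5 in clone 4 and 720.5, 7.4, 15.7, 648.5 and 635.9 in clone 18, so single tumors of both lines were high. The pericyte gene *Rgs5* was lower (-0.36, adjusted p = 0.0155), the muscle gene *Des* higher (0.46, adjusted p = 0.0385) and the keratinocyte gene *Sbsn* higher (1.51, adjusted p = 0.0466), and *Des* and *Sbsn* lost their calls in 8 and 9 of the 10 fits with 1 tumor left out.

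Neighboring genes on some chromosomes moved together. Windows of 25 neighboring tested genes were taken along each chromosome, and of 15650 windows 105, or 0.671%, had a median difference of at least 0.25 in size. They merged into 5 stretches. The most stable lay on chromosome 15 from 90882615 to 99584547 (GRCm38), with 73 tested genes, a median of 0.32, 83.6% of genes higher in clone 18, 23 called higher and 0 lower. Its 50 uncalled genes had a median of 0.23, and the median was 0.30 to 0.33 with 1 tumor left out and 0.29 without tumors 10 and 13. With windows of 50 genes it was the 1 stretch left.

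Against the mean of the control, the median gene of this stretch was at -0.33, -0.31, -0.34, -0.39 and -0.35 on the log2 scale in tumors 6 to 10 and at -0.04, -0.05, 0.08, -0.01 and -0.05 in tumors 11 to 15, with the control tumors from -0.05 to 0.09. Clone 4 was therefore the line that was lower, in each of its tumors, and clone 18 lay with the control. The called genes include *Twf1*, an actin-binding protein (6799.3 in the mean of clone 4, 9094.1 of clone 18, 9584 of the control), *Senp1*, a SUMO protease (3174.9, 4205.3 and 4206.1), *Kansl2*, a subunit of a histone acetyltransferase complex (2541.7, 3274.5 and 3786.6), and *Prkag1*, a subunit of AMP-activated kinase (4444.2, 5664.7 and 6361.2). *Slc48a1*, a heme transporter (16913, 23942 and 19873), and *Cntn1* (17.7, 102.3 and 17.0) were above the control in clone 18. The 520 tested genes on the rest of chromosome 15 had a median of -0.0002, with 20 called higher and 6 lower.

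The end of chromosome 15, from 102331709 to 103498810, appeared with windows of 15 genes. It holds 26 tested genes with a median of 0.20, 6 called higher and 0 lower, the Hoxc genes among them. Its median gene was at -0.38 to -0.23 against the control in clone 4 and at -0.18 to -0.03 in clone 18. *Hoxc6* did not follow this order, since clone 4 was near the control and clone 18 above it.

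Chromosome 16 was lower in clone 18 along nearly all of its length. Its 483 tested genes had a median of -0.12, 72.9% were lower, and 44 were called lower against 4 higher, while the median of the other chromosomes with more than 13 tested genes lay between -0.05 and 0.03. The deepest stretch ran from 21953817 to 31458901, with 46 tested genes, a median of -0.24, 10 called lower and 2 higher, and its median gene was at -0.33, -0.32, -0.37, -0.26 and -0.26 against the control in tumors 11 to 15 and at -0.04, -0.10, -0.03, -0.17 and 0.07 in tumors 6 to 10. The other 437 genes had a median of -0.12, with -0.30 to -0.24 against the control in clone 18 and -0.19 to -0.08 in clone 4. Over all chromosomes the same measure was between -0.03 and 0.03 in every tumor, so outside the deepest stretch both lines were lower than the control on chromosome 16, and each clone 18 tumor was lower than each clone 4 tumor. Within it, clone 4 overlapped the control. The deepest stretch was not found with windows of 50 genes, nor with called genes left out. Its 34 uncalled genes had a median of -0.20.

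Called genes of the deepest stretch include *Etv5*, *St6gal1*, a sialyltransferase (8870.7 in the mean of clone 4, 5131.4 of clone 18, 5720.4 of the control), *P3h2*, a collagen hydroxylase (2489.9, 1546.2 and 2305.7), and *Cldn1* (7296.8, 5000 and 4413.3). *Atp13a4* (chromosome 16 from 29395853 to 29544864, minus strand), a transporter of the P5 ATPase family, went the other way, with 1991.3, 1673.2, 2422.1, 2184.6 and 1911.6 in clone 4, 4661.6, 5897.3, 5591.9, 4602.8 and 5058 in clone 18 and 126.1 to 335.4 in the control (log2 difference 1.35, standard error 0.10, adjusted p = 8.86e-06).

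**Figure D5:**
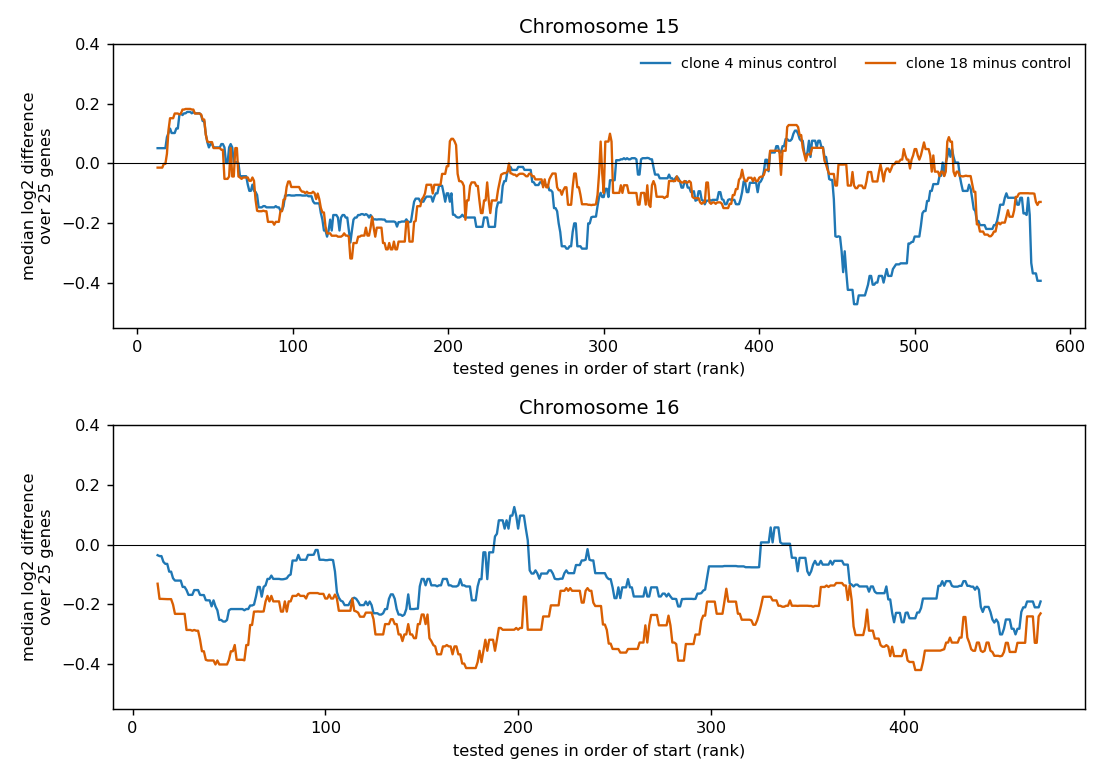
Median log2 difference from the control over 25 neighboring tested genes (vertical axis) along chromosome 15 (top) and chromosome 16 (bottom), against the rank of the gene by start (horizontal axis), for clone 4 (blue) and clone 18 (orange). On chromosome 15 only clone 4 drops, to below -0.4, in the stretch of 73 genes, and on chromosome 16 the orange line lies below the blue one nearly throughout.

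The other 3 stretches held fewer called genes. With called genes left out, windows of 25 genes still found a stretch at each of these 3 places. On chromosome 1 from 86582904 to 91128944, 48 genes had a median of 0.19 (0.098 to 0.25 with 1 tumor left out), with 3 called higher and 3 lower, and this region holds the Ugt1a cluster of glucuronosyltransferases, whose members share exons. On chromosome 3 from 41484024 to 52105076, 33 genes had a median of 0.29 with 2 called, *Platr4* and *Mgst2*. On chromosome 9 from 3000282 to 7581885, 28 genes had a median of 0.45 with 1 called, *Casp4*. This median was 0.31 to 0.75 with 1 tumor left out and 0.83 without tumors 10 and 13. At its start overlapping predicted genes such as *Gm26870* held 777.2, 1655.1, 4597.4, 1108.2 and 49026 in clone 4 and 9712.1, 18450, 24923, 31371 and 6545.8 in clone 18, so tumors of 1 line differed more than the lines did (adjusted p = 0.191). Copy number was not measured, and its part in any of these stretches was not tested.

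The place of the control between the lines was counted for all called genes. Of the 674 called genes, 333, or 49.4%, had a control mean between the clones, against 23.7% of all tested genes. Called genes were selected for wide gaps between the clones, with a median size of 0.54 against 0.14 for all tested genes. A control mean falls within a wide gap more often, so no conclusion is drawn from this excess. For genes higher in clone 18, 177 had a control mean nearer to clone 4 and 181 nearer to clone 18. For genes lower in clone 18, 236 were nearer to clone 4 and 80 nearer to clone 18, or 74.7% and 25.3%, against 58.3% and 41.7% of all tested genes. All of these values use the same 5 control tumors.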

How the data were processed

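Bulk RNA from 15 Renca tumors was measured, 5 per group. TopHat2 was the aligner that the authors used, against mm10, with HTSeq for the reads of each gene and DESeq for the normalization. The deposited values are a signal, namely counts divided by a size factor and rounded to 0.1. Versions, the annotation and the strand setting are not given in the sources used here, so reads of overlapping genes may be shared. Whole reads were recovered, since 100% of values up to 8000 were whole multiples of a step per tumor, within 0.1 read.

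Groups were taken from the labels, and no column of the table was left without a sample. Clone 18 and clone 4 were compared with limma 3.58.1 (R 4.3.3), with a mean-variance trend, on log2(normalized count + 1). The fit held the 10 knockout tumors and 16391 genes that averaged 10 or more, and a gene was called at a Benjamini-Hochberg adjusted p of 0.05. This test is two-sided, and the adjusted p-values in the report come from it unless another tool is named. Fold changes of low genes are understated on this scale. A standard error or SD has n = 5 tumors per group. Nothing in the labels says that tumors of a clone came from separate injections of separate cultures, so the p-values measure the spread between these tumors. The fits were tested on simulated data. Counting error is small for genes with many reads and limits genes near 10.

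The alternatives were edgeR 4.0.16 and DESeq2 1.42.0 on recovered reads, a two-sample test, other pseudocounts, filters and scalings, a fit of all 3 groups, and leaving out tumors. Named genes were the targeted gene, the 14 largest differences in each direction among called genes without overlap, genes with at most 3 reads in each tumor of one clone, up to 4 called members of each list by adjusted p (or, with none, the 2 with the highest mean), and the 2 most abundant host cell markers of each list. Other genes were chosen after their values were seen, and a few named by the rule are not reported here. The lists, tests and the comparison itself were chosen with earlier results of these data known. Gene positions are GENCODE M21 on GRCm38, matched by symbol for 17682 genes and by synonym for 283, and promoters are RefSeq on GRCm38.p6.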

Additional observations from a re-analysis of the deposited data

Results flagged for a closer look

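In each group of 5 tumors, the highest or lowest tumor was marked where its gap to the next was over 0.71 of the range of the group. Of 254 groups of named genes, 18 were marked, and chance marks about 1 in 20, or 12.7. Tumor 10 accounted for 5, tumor 15 for 4, tumor 13 for 3, tumor 9 for 2 and tumors 6, 8, 11 and 12 for 1 each. All values are normalized counts.

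In clone 4, *Bmp5* was 9.9 in tumor 8 and 1 to 2.2 in the others. Tumor 10 was high for *Ighv3-8* at 205 and *Igkv6-32* at 232.8, with 0 in the others, for *Mmp9* at 2202.3 (97.4 to 182.5 in the others) and for *Fabp4* at 1406.9 (219.6 to 322), and low for *Top2a* at 20466 (25550 to 27565). *Des* was 2809.1 in tumor 6 (3597.7 to 3830.9 in the others). Tumor 9 was low for *Stat3* at 8852 (10507 to 10701) and for *Adamts5* at 9825.9 (14406 to 16645).

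In clone 18, tumor 15 was high for *Serpina12* at 1184.5 (653.3 to 761.3 in the others) and *Cd4* at 165.7 (77.2 to 95.2), and low for *Slc2a2* at 2.2 (7.1 to 9.2) and *Sbsn* at 39.2 (55.1 to 56.6). Tumor 13 was low for *Klrk1* at 17 (58.2 to 75) and *Csf1* at 3180.8 (4100.6 to 4343.3) and high for *Nupr1* at 3506.7 (3061.5 to 3123.5). *Mmp9* was 1541.7 in tumor 12 (324.5 to 456.8 in the others), and *Adamts9* was 6360.8 in tumor 11 (7164.6 to 7487.6).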

How the results depend on the processing

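The 674 calls (358 higher and 316 lower in clone 18) became 1244 with DESeq2 (638 and 606) and 360 with the two-sample test of equal variances (200 and 160). With 1 tumor left out the count was 436 to 759, with 240 to 450 higher and 196 to 309 lower, and the lowest came without clone 18 tumor 11 and the highest without clone 4 tumor 10. Without clone 4 tumor 7, 207 were lower. Without a trend in limma 476 were called, 210 of them lower. The count was 654 with edgeR, 673 without tumors 10 and 13, and 588 with scaling to total reads, an alternative chosen after seeing the data. Of the 674 genes, 366 were called with any 1 tumor left out and 266 under all alternatives run. No result changed direction under these alternatives where it was called.

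Genes near absent in one clone numbered 5 with at most 3 reads in each tumor, 3 with at most 1 and 64 with at most 10. Stretches of neighboring genes numbered 5 with windows of 25 genes, 32 with windows of 15 and 1 with windows of 50. With called genes left out there were 5, on chromosomes 1, 3, 9, 15 and 17. The causes were not tested. No paired analysis was possible because no label links a tumor of one clone to a tumor of the other. A comparison of CpG content over promoters is not reported here, since only 69.8% of tested genes had a promoter window on hand.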
